A study of Mus musculus with 8 samples.

Results

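The subunits of the constitutive proteasome were read on every array as the genes named Psma1 to Psma8, Psmb1 to Psmb7, Psmc1 to Psmc6 and all genes named Psmd with a number. This naming rule found 35 genes with 56 probes, and each gene was represented by the brightest of its probes. After the filter on dim probes 34 of the 35 were tested, among 19023 genes in all. By role, 8 genes encode the alpha ring and 7 the beta ring of the 20S core, 6 the ATPases and 3 the other subunits of the 19S base, 8 the 19S lid, and 3 encode chaperones that assemble the base.

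The proteasome is the protease that removes most short-lived and damaged proteins of a cell. Its 20S core is a barrel of alpha rings, which gate the entry, and beta rings, which carry the catalytic sites, and the 19S particle binds ubiquitin chains, removes them, unfolds the substrate and feeds it into the core. The subunits are needed in fixed proportions, and their genes are known to be transcribed together, in part through NRF1, the product of Nfe2l1. In thymic cortical epithelium and in immune cells, alternative catalytic subunits replace those of the constitutive core and change the peptides presented to T cells.

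RNA of TEC100.4, a mouse thymic epithelial cell line that the labels trace to the cortex, was hybridised to one-colour expression arrays. The cells carried a doxycycline-inducible mutant of TFII-I, a transcription factor encoded by Gtf2i, as either its β or its δ isoform, and were grown for 24 h in medium with doxycycline or without it. This gave 4 groups of 2 arrays: the untreated β line, the β line with doxycycline, the untreated δ line and the δ line with doxycycline. All 4 groups are derivatives of the same parental line, the genotype label of the untreated arrays says wild-type TFII-I although their titles give the uninduced mutant line, and no line without the transgene was analysed here. An effect of doxycycline itself therefore cannot be told apart from that of the induced protein, and an effect of the isoform cannot be told apart from other differences between the lines. Separate cultures behind the 2 arrays of a group are not stated in the labels, so each p-value covers only the spread of these arrays, which may be technical.

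Between 39578 and 45156 probes were well above background per array, and the treated arrays (43424 to 45156) did not overlap the untreated ones (39578 to 40759). The treated arrays also lay in one row of the slide and the untreated arrays in the other, so slide row and doxycycline cannot be told apart. The β arrays lay in slide columns 1 and 2 and the δ arrays in columns 3 and 4. Slide column and line therefore cannot be told apart either. On replicate 1 of the untreated δ line, 7.58% of spots lay in small areas that deviated from the other arrays, against at most 0.511% on any other array. The brightest probes of Psma5 and Psmd3 lay in these areas, so the main counts and medians are also given without such probes, which leaves 33 subunits, with Psmd3 read from its other probe. Of the cortical epithelial markers 6 of 10 were well above background on all arrays, while Psmb11 and Cd83 were so on none. Krt8 and Krt18 were measured on all arrays, Epcam on 1 and Cdh1 on 3, and 7 of 8 fibroblast markers, Col1a1 and Dcn among them, were measured on all 8. The brightest Gtf2i probe stood at 4.39 and 4.63 in the untreated β line, 4.58 and 4.66 in the treated β line, 5.29 and 5.07 in the untreated δ line and 5.28 and 5.26 in the treated δ line. With doxycycline its log2 level differed by 0.11 in the β line and 0.09 in the δ line (limma, adjusted p = 0.716 and 0.725). It was higher in the δ than in the β line, by 0.67 without and 0.65 with doxycycline (limma, adjusted p = 0.0195 and 0.0207). A dimmer Gtf2i probe read -2.13 and -2.56 untreated and -1.05 and -1.01 treated in the β line, a difference of 1.31, and differed by 0.14 in the δ line, while the remaining probe differed by 0.15 and 0.05. Which of these probes read the transgene is not stated in the sources used here.

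Levels are log2 signals relative to each array's 75th percentile, and a difference is a log2 fold change with its SE. Doxycycline was followed by no subunit change that passed the test within either line. In the β line limma called 0 of the 34 subunits at an adjusted p under 0.05 (0.247% of all genes were called), and 4 of 34, or 11.8%, had an unadjusted p under 0.05 against 18.2% of all genes. In the δ line limma called 0 of 34 (0.0736% of all genes), with 3 of 34 at an unadjusted p under 0.05, or 8.82% against 15.0%. Without the probes in the deviating areas, 1.56% of all genes were called in the β line and 0.336% in the δ line, and the subunits called were again 0 in both. With both lines averaged, limma called 1 subunit, Psmd11, which was lower (1.58% of all genes were called lower and 3.12% in either direction, or 5.33% in either direction without those probes). For the difference between the lines in their response, limma called 0 of 34 subunits (0.00526% of all genes), and 0 had an unadjusted p under 0.05.

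The sizes of the differences were small as well. All 34 subunits differed by less than 1.5-fold between treated and untreated β cells, where 92.3% of all genes did. The δ line had 32 of 34, against 90.9% of all genes, and the other 2 were Psma5 and Psmd3. The 95% confidence interval of the difference lay within 1.5-fold in either direction for 27 of the 34 subunits in each line, and within 2-fold for 32. Without probes in deviating areas these were 28 of 33 in the β line and 29 of 33 in the δ line within 1.5-fold, and 33 of 33 in each within 2-fold. The subunits whose interval crossed 1.5-fold in the β line included Psmb7, Psmd5, Psmd9 and Psmd11, which had the lowest estimates.

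**Figure D1:**
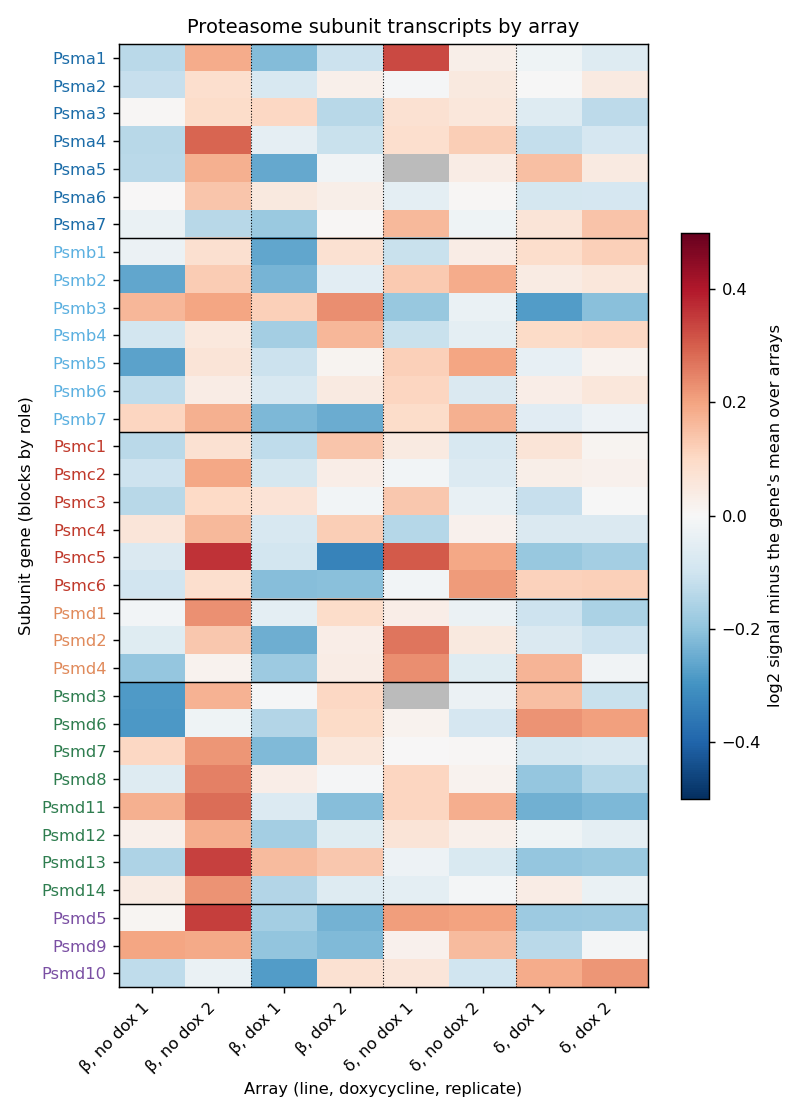
Each row is a tested subunit, ordered by role, and each column an array; colour gives the log2 signal minus that gene's mean over arrays, with the 2 cells of Psma5 and Psmd3 that lay in deviating areas in grey. Psma8, which was not tested, is not drawn. The second untreated β array is the one on which most subunits stood above their own mean (29 of 32 outside those areas).

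The differences that did not pass the test leaned downwards. In the β line 25 of 34 subunits were below zero with a median of -0.08, beside 44.2% of all genes below zero with a median of 0.03. For the δ line 22 of 34 were below zero with a median of -0.08, beside 49.9% of all genes and a median of 0.00. Without probes in deviating areas 25 of 33 were below zero in the β line, with a median of -0.08, and 23 of 33 in the δ line, with a median of -0.11. The median stayed below zero in both lines under median centring, quantile normalization and normexp background correction. In the β line it rested on the untreated arrays: it was -0.20 without the first and 0.02 without the second of them.

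The array values show this spread directly. Over the 32 subunits outside the deviating areas, the median deviation from each gene's own mean was -0.07 and 0.15 on the untreated β arrays and -0.13 and 0.02 on the treated ones. The untreated β arrays thus stood 0.22 apart and the treated ones 0.15 apart, while treated minus untreated was -0.10. In the δ line the medians were 0.06 and 0.02 untreated and -0.05 and -0.03 treated. These δ arrays stood 0.04 and 0.02 apart within groups, while treated minus untreated was -0.08. The shift thus exceeded the gaps between replicates in the δ line and fell short of them in the β line. The medians over 17521 genes outside those areas were 0.07 and -0.02 on the untreated δ arrays and -0.001 and 0.01 on the treated ones. In the β line they were -0.03 and -0.01 untreated and 0.01 and -0.01 treated. All genes thus stood about as high as the subunits on the first untreated δ array. The within-group SD of a subunit had a median of 0.12, beside 0.13 for all genes.

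Counting the subunits whose treated and untreated arrays did not overlap gave 9 lower and 0 higher in the β line, where 20.3% of all genes were lower without overlap and 26.6% higher. In the δ line 18 of 34 subunits were lower and 6 higher, where 27.6% and 30.4% of all genes were. Of these 6, Psma5 was higher through its value in the deviating area. The 18 made up 52.9% of the subunits, and the 9 of the β line 26.5%. Lower without overlap in both lines were 7 subunits, or 20.6%, where 10.6% of all genes were: Psmb7, Psmc5, Psmd5, Psmd7, Psmd9, Psmd11 and Psmd12. Higher in both lines without overlap were 0 subunits, where 11.3% of all genes were. The β and δ comparisons share no array. Across the 32 subunits their differences had a Pearson r of 0.60 and a Spearman rho of 0.49, against 0.32 and 0.32 across 17521 genes, as a description of values that share the slide layout and are not independent.

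**Figure D2:**
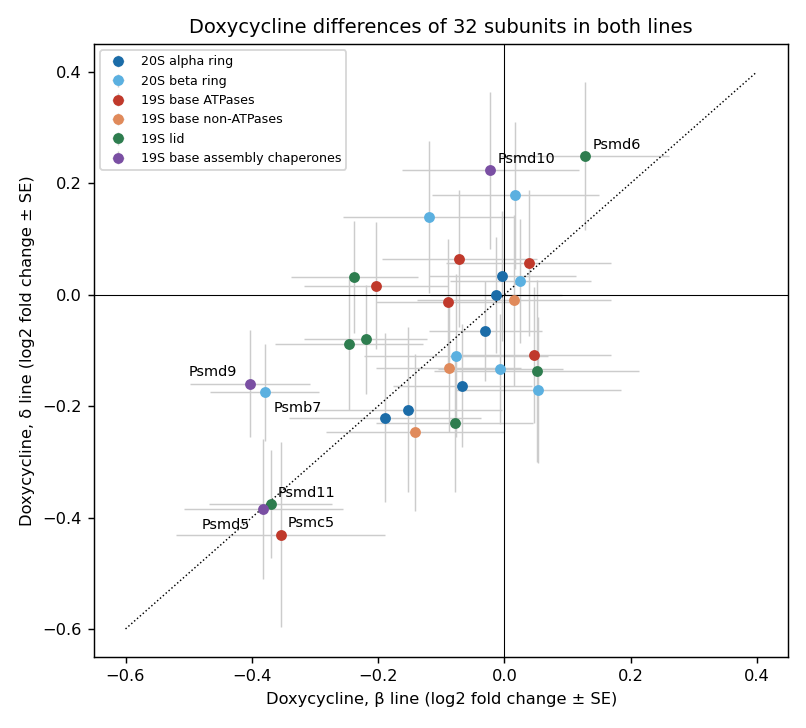
Each point is 1 of the 32 subunits outside the deviating areas, with its doxycycline log2 fold change in the β line on the x axis and in the δ line on the y axis; bars are SE, colours are roles and the dotted line marks equal differences. Psmd11, Psmd5 and Psmc5 lie in the lower left in both lines, while Psmd9 and Psmb7 lie further below zero in the β line than in the δ line.

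The lid, which removes ubiquitin chains from substrates, held the subunit that passed the test. Psmd11 encodes Rpn6, the lid subunit that clamps the 19S particle to the core. Its level was 2.82 and 2.92 on the untreated β arrays and 2.57 and 2.42 with doxycycline, and 2.74 and 2.82 on the untreated δ arrays and 2.40 and 2.41 with doxycycline. Both treated groups lay wholly below both untreated groups. The difference was -0.37 ± 0.10 in the β line (limma, adjusted p = 0.138) and -0.38 ± 0.10 in the δ line (limma, adjusted p = 0.229). Averaged over the lines it was -0.37 ± 0.07, or 1.29-fold lower (limma, adjusted p = 0.0493). The size ranged from -0.41 to -0.31 over the 17 alternatives, but the call was lost in 11 of them. These were the mean over probes, median centring, normexp, the slide column as a block, and the fits without any 1 array other than the second untreated δ array, with adjusted p values of 0.0531 to 0.229 in limma.

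Of the 8 lid subunits 5 were below zero in the β line and 5 in the δ line by their brightest probes, and 6 in each without probes in deviating areas. Psmd12 (Rpn5) and Psmd7 (Rpn8, the partner of the deubiquitinase Rpn11) were lower without overlap in both lines. Psmd12 differed by -0.22 in the β line and -0.08 in the δ line. Psmd7 differed by -0.25 and -0.09. Psmd14 encodes the deubiquitinase Rpn11 itself. By its brightest probe it was lower without overlap in the β line only, at -0.24 against 0.03 in the δ line. The δ minus β difference of these was 0.27 (limma, adjusted p = 0.658). Its other probe gave -0.30 in the β line and -0.19 in the δ line, so no limit to the β line is read for Psmd14.

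Psmd6 (Rpn7) was the subunit furthest above zero in the β line, and its probes did not give the same direction. Its brightest probe read 3.89 and 4.15 untreated and 4.03 and 4.27 treated in the β line, and 4.19 and 4.09 untreated and 4.40 and 4.38 treated in the δ line. The differences were 0.13 ± 0.13 in the β line and 0.25 ± 0.13 in the δ line (limma, adjusted p = 0.686 and 0.404). Its other 2 probes gave -0.30 and -0.44 in the β line and -0.24 and -0.19 in the δ line. No direction is therefore given for Psmd6.

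Psmd3 (Rpn3) is the lid subunit whose brightest probe lay in a deviating area. That probe read -6.86 on the first untreated δ array and between 6.29 and 6.74 on the others, which gave a δ difference of 6.75 ± 3.84 that is not read as a response. Its other probe read 2.07 and 2.07 on the untreated δ arrays and 1.97 and 1.66 with doxycycline, a difference of -0.26. Psma5 in the alpha ring read 3.25 on the same array and between 4.78 and 5.22 elsewhere.

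The 3 assembly chaperones of the base bind its ATPases before the particle is complete and are absent from the finished proteasome. Psmd5 encodes the chaperone S5b, and its level was 1.72 and 2.05 in untreated β cells, 1.54 and 1.47 with doxycycline, 1.92 and 1.91 in untreated δ cells and 1.53 and 1.53 with doxycycline. It was lower with doxycycline without overlap in both lines, at -0.38 ± 0.13 in the β line and -0.38 ± 0.13 in the δ line, where limma gave an adjusted p of 0.287. Psmd9 (p27) read 0.45 and 0.44 untreated and 0.05 and 0.03 treated in the β line. The β difference was the lowest of all subunits, at -0.40 ± 0.10 (limma, adjusted p = 0.113). In the δ line Psmd9 read 0.27 and 0.40 untreated and 0.11 and 0.24 treated, a difference of -0.16. Psmd10 (gankyrin) was the exception, with -0.02 in the β line and 0.22 in the δ line.

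**Figure D3:**
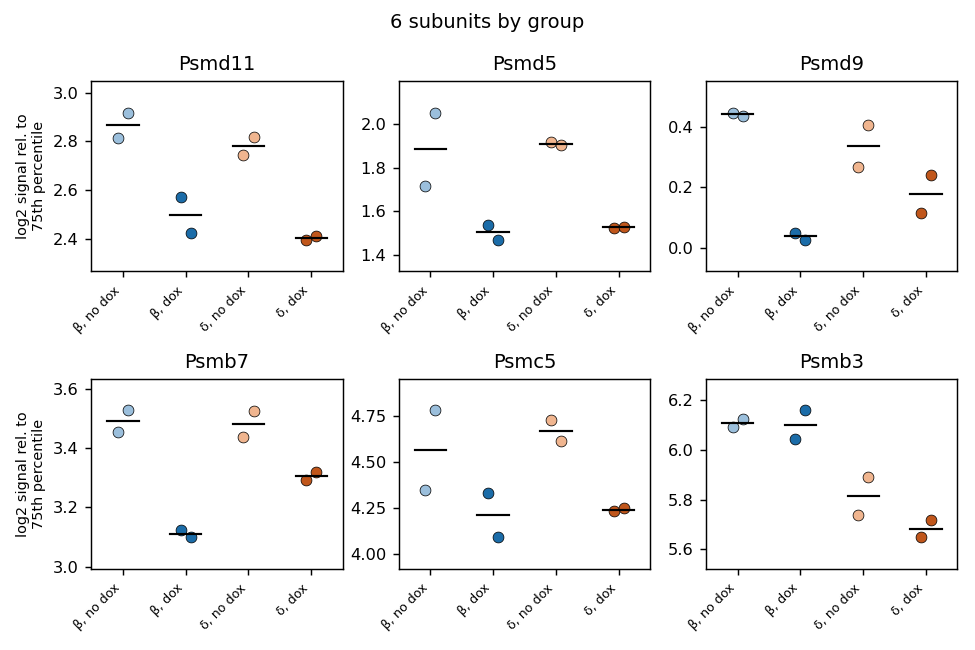
Each panel gives 1 subunit, with log2 signal relative to the array's 75th percentile on the y axis, which has its own range in each panel and does not start at 0, and the 4 groups on the x axis; points are arrays and bars are means of 2. The treated arrays of Psmd11, Psmd5, Psmd9, Psmb7 and Psmc5 lie below the untreated arrays of the same line, and the δ arrays of Psmb3 lie below the β arrays.

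The ATPases form the ring that unfolds substrates. Psmc5 (Rpt6) read 4.35 and 4.78 untreated and 4.33 and 4.09 treated in the β line, where 1 treated array lay just below the lower untreated one. In the δ line it read 4.73 and 4.62 untreated and 4.23 and 4.25 treated. The differences were -0.35 ± 0.17 and -0.43 ± 0.17 (for the latter, limma, adjusted p = 0.316). The other 5 ATPases had β differences between -0.20 (Psmc6) and 0.05 (Psmc3) and δ differences between -0.11 (Psmc3) and 0.06 (Psmc2). For Psmc3 (Rpt5) the sign in the β line turned with the mean over its probes (-0.08) and with quantile normalization (-0.06). The other base subunits are the scaffold and ubiquitin receptor genes. By its brightest probe Psmd1 differed by -0.09 and -0.13, Psmd2 by -0.14 and -0.25 and Psmd4 by 0.02 and -0.01 in the β and δ lines. The other probe of Psmd4 gave -0.22 and -0.29, and that of Psmd2 -0.12 and -0.50. For Psmd1 the other 2 probes gave -0.20 and 0.11 in the β line and -0.36 and -0.03 in the δ line.

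In the beta ring the 3 catalytic subunits did not share a pattern. Psmb7, the trypsin-like subunit, read 3.45 and 3.53 untreated and 3.12 and 3.10 treated in the β line, and 3.44 and 3.53 untreated and 3.29 and 3.32 treated in the δ line. Its groups did not overlap in either line, with differences of -0.38 ± 0.09 (limma, adjusted p = 0.106) and -0.18 ± 0.09 (limma, adjusted p = 0.384). Psmb5, the chymotrypsin-like subunit, read 3.41 and 3.74 untreated and 3.57 and 3.69 treated in the β line, and 3.80 and 3.87 untreated and 3.63 and 3.70 treated in the δ line. It overlapped in the β line (0.05) and was lower without overlap in the δ line (-0.17). Psmb6, the caspase-like subunit, overlapped in both lines, at 0.02 in each, with a sign that turned with the scaling. By their brightest probes the non-catalytic Psmb1, Psmb2, Psmb3 and Psmb4 had β differences between -0.12 and 0.02 and δ differences between -0.13 and 0.18. The upper ends were those of Psmb4, whose other probe gave -0.31 in the β line and -0.23 in the δ line. No direction is therefore given for Psmb4. The other probe of Psmb2 gave -0.27 and -0.44.

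In the alpha ring all 7 tested members (6 without Psma5) were below zero in the β line, between -0.19 (Psma1) and -0.00 (Psma7), and none was called. Outside the deviating areas, Psma1 (-0.22), Psma4 (-0.21), Psma3 (-0.16), Psma6 (-0.07) and Psma2 (-0.00) were also below zero in the δ line, and Psma7 was at 0.03. Psma8, the alpha subunit known from testis, was not well above background: its brightest probe passed on 1 of 8 arrays and its other probe on 2.

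Whether the choice of probe matters was read from the genes with several kept probes outside the deviating areas. For 13 subunits the other, dimmer probes numbered 17. In the β line 15 of these 17 were below zero with a median of -0.22, while the brightest probes of the same genes had a median of -0.03. Over all genes 44.6% of such other probes were below zero. The δ line had 13 of 17 below zero with a median of -0.11, against -0.07 for the brightest probes and 53.0% below zero over all genes. Within the β line the dimmer probes therefore lay lower than the brightest ones in 13 of 17 pairs, where 45.3% of pairs did over all genes. In the δ line they did so in 9 of 17 pairs, or 52.9%, against 55.1% over all genes.

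**Figure D4:**
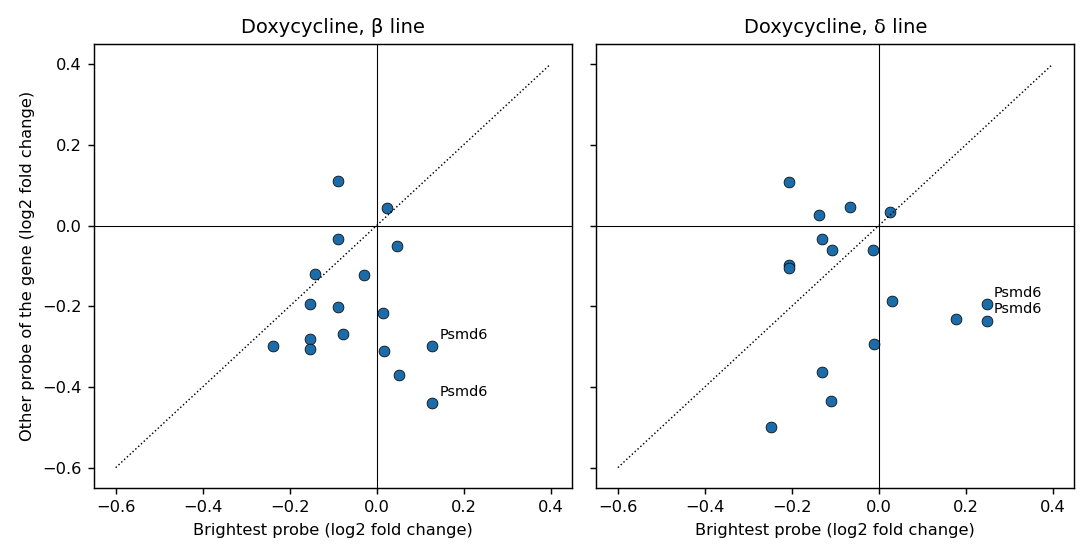
Each point pairs another kept probe of a subunit (y axis, log2 fold change with doxycycline) with that gene's brightest probe (x axis), for 17 probes of 13 genes, in the β line on the left and the δ line on the right; the dotted line marks equal values. In the β line 13 of 17 points lie below the dotted line, and the labelled Psmd6 probes lie on opposite sides of zero on the 2 axes.

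The 2 lines were compared with each other at each condition. Without doxycycline limma called 0 of 34 subunits between the δ and β lines (13.2% of all genes were called), and 1 of 34 had an unadjusted p under 0.05, or 2.94% against 27.8% of all genes. With doxycycline it called 1, Psmb3, which was lower in the δ line (5.51% of all genes were called lower and 15.3% in either direction), and 2 of 34, or 5.88%, had an unadjusted p under 0.05 against 31.9%. The subunits' median was 0.00 without and 0.04 with doxycycline, beside 0.02 and -0.01 for all genes, and 0.02 and 0.03 without probes in deviating areas. Differences under 1.5-fold were seen for 32 of 34 subunits without doxycycline, the other 2 being Psma5 and Psmd3, and for 34 of 34 with it, against 82.3% and 85.4% of all genes.

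Subunits whose arrays did not overlap between the lines numbered 5 lower and 3 higher in the δ line without doxycycline, where 23.9% and 29.0% of all genes did. With doxycycline 6 were lower and 12 higher, where 33.1% and 35.4% did. In both conditions 1 was lower, Psmb3 (15.2% of all genes), and 2 were higher, Psma7 and Psmb2 (20.7% of all genes).

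Psmb3 encodes a non-catalytic subunit of the beta ring. It read 6.09 and 6.12 in untreated β cells, 6.04 and 6.16 in treated β cells, 5.74 and 5.89 in untreated δ cells and 5.65 and 5.72 in treated δ cells. All 4 δ arrays lay below all 4 β arrays. With doxycycline the difference was -0.42 ± 0.10, or 1.34-fold lower in the δ line (limma, adjusted p = 0.0400), and without doxycycline it was -0.29 ± 0.10 (limma, adjusted p = 0.115). The call was lost in 9 of 17 alternatives, at adjusted p values of 0.0506 to 0.258 in limma: median centring, no filter on dim probes, normexp, and the fits without either untreated β array, either treated β array or either treated δ array. Psmd13 (Rpn9) at -0.33 was called beside it where only the 4 treated arrays were fitted (limma, adjusted p = 0.0497). It was called in place of Psmb3 without either untreated β array. By its other probe Psmd13 differed by -0.09 between the treated lines.

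Markers of cell identity differed between the lines at the same time, in both directions. Of the 8 cortical markers tested, limma called Prss16 lower and Cxcl12 higher in the δ line in both conditions. Kitl was called lower without doxycycline only. Among 8 fibroblast markers Col1a2 and Pdgfrb were called higher in both conditions, and Col1a1 lower with doxycycline. Kdr and the thymocyte marker Tcf7 were called higher in both, and Themis without doxycycline. Over all genes 13.2% and 15.3% were called. Of 4 general epithelial markers 2 were measured on all arrays, and the summed signal of the list, in multiples of the array's 75th percentile, was 24.4 to 26.4 in untreated and 23.1 to 23.5 in treated β cells but 9.82 to 10.2 and 9.96 to 9.97 in δ cells. Of 6 medullary markers 4 were measured on all arrays and Fezf2 on none, and their sum was 30.6 to 36.4 and 28.1 to 32.7 in the β line and 3.31 to 3.70 and 2.92 to 3.56 in the δ line. This sum followed Krt14, which read 4.74 to 5.14 over the β arrays and 1.1 to 1.35 over the δ arrays and was the only one of the 4 tested markers that limma called, while 2 of the 4 were above zero without doxycycline. Of 6 macrophage and dendritic markers Adgre1 and Itgax were well above background on no array. The list summed to 6.73 to 6.80 in untreated and 9.67 to 10.7 in treated β cells. In the δ line the sums were 5.87 to 7.08 and 5.70 to 6.29. Between the lines limma called 3 of the 4 tested markers, Cd68, Cd74 and Lyz2, lower in the δ line in both conditions. The medians of the 4 were -0.96 without and -0.92 with doxycycline, and Lyz2 was well above background on 3 arrays. The higher sum in treated β cells followed Csf1r, which read 1.88 and 1.86 untreated and 2.66 and 2.86 treated. Limma called 0 of the 4 tested markers of this list for doxycycline in the β line. With doxycycline in the β line the sum of 13 thymocyte markers (20.5 to 22.2 untreated, 23.0 to 34.3 treated) also did not overlap. Nor did those of 8 fibroblast markers (519.6 to 552.1 and 567.3 to 642.2) and 4 endothelial markers (1.5 to 1.91 and 2.23 to 2.43). Cd3g, Rag1 and Ptprc were well above background on no array. Among these markers limma called only Kdr, at -0.20 and -0.09 untreated and 0.73 and 0.83 treated. The endothelial sum followed Kdr, while 2 of the 4 endothelial markers were below zero. In the δ line the sums of the 10 cortical markers (59.5 to 61.5 untreated, 71.5 to 73.6 treated) did not overlap. Nor did those of the fibroblast markers (527.4 to 539.4 and 546.1 to 550.8) and the endothelial markers (3.69 to 3.96 and 5.51 to 5.67). On the first untreated δ array Thy1 lay in a deviating area and read -0.004, against 3.57 on the second, so no fibroblast difference is read. The cortical sum followed Ctsl, whose probe also lay in a deviating area, at 5.65 and 5.72 untreated and 6.02 and 5.97 treated. Of the 8 cortical markers tested 3 were below zero, with a median of 0.01, and limma called 0. Of the 4 endothelial markers 1 was below zero, and limma called 0. The endothelial sum followed Kdr here too, at 1.76 and 1.68 untreated and 2.36 and 2.27 treated. Averaged over the lines, limma called Kdr higher with doxycycline. The part of these differences in the subunit values was not tested, and fewer cells of a type cannot be told apart from less RNA per cell.

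The alternative catalytic subunits were set beside the constitutive ones they replace. Psmb8 replaces Psmb5 in the immunoproteasome, and it read 0.68 and 0.96 in untreated β cells, 0.90 and 1.21 in treated β cells, 0.43 and 0.42 in untreated δ cells and 0.41 and 0.35 in treated δ cells. All δ arrays lay below all β arrays. With doxycycline Psmb8 was 1.60-fold lower in the δ line, at -0.68 ± 0.14 (limma, adjusted p = 0.0295), a call lost in 4 of 17 alternatives: median centring and the fits without the second treated β array or without either treated δ array (limma, adjusted p = 0.100 to 0.167). Without doxycycline the difference was -0.40 ± 0.14 (limma, adjusted p = 0.136). Its constitutive counterpart Psmb5 differed by 0.03 with and 0.26 without doxycycline. Psmb9, which replaces Psmb6, read between 0.43 and 0.97 over all arrays, and Psmb10, which replaces Psmb7, between 4.71 and 5.21. Neither was called in any of the 6 contrasts. Psmb11, the thymus-specific subunit of cortical epithelium, was not well above background on any array.

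**Figure D5:**
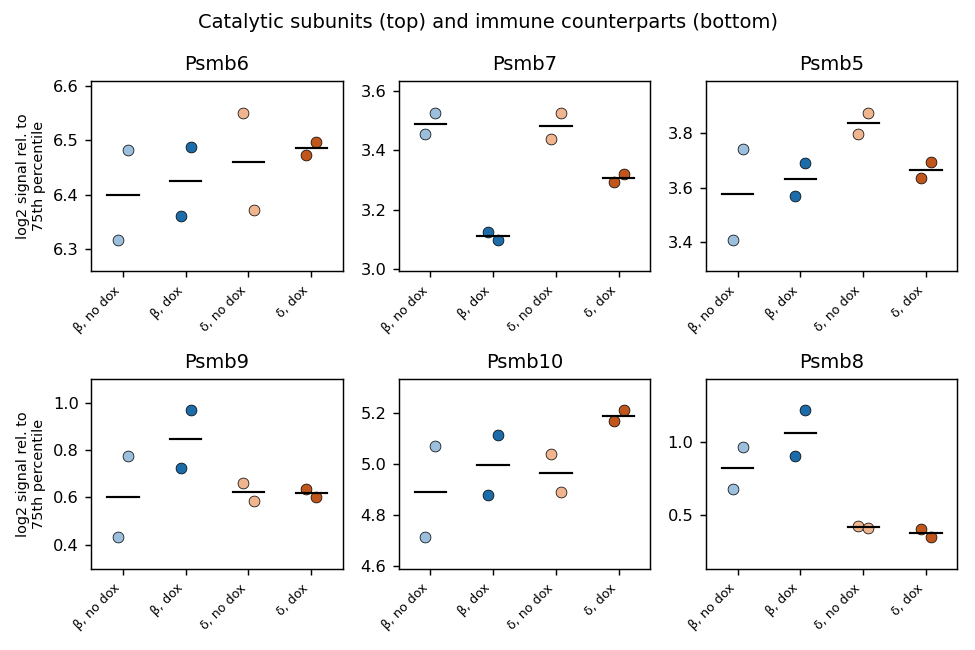
The top panels give the constitutive catalytic subunits and the bottom panels the immune subunit that replaces each, as log2 signal relative to the array's 75th percentile on the y axis (with its own range in each panel, not starting at 0) by group on the x axis; points are arrays and bars are means of 2. Psmb7 is lower with doxycycline in both lines, and Psmb8 is lower in the δ arrays than in the β arrays.

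A wider list of 45 tested genes around the proteasome held Psmb8, Psmb9 and Psmb10 from above. It also held activators, core assembly chaperones, ubiquitin receptors and shuttles, regulators of proteasome transcription and ubiquitin genes. Limma called 0 of the 45 for doxycycline in the β line and 0 in the δ line, with medians of -0.04 and -0.02. These stand beside 0.247% and 0.0736% of all genes. Averaged over the lines it called 1 of 45, beside 3.12% of all genes: Ddi2, the protease that activates NRF1. Ddi2 read -0.20 and -0.13 untreated and -0.56 and -0.57 treated in the β line, and -0.17 and -0.29 untreated and -0.72 and -0.57 treated in the δ line. Treated arrays lay below untreated ones in both lines, and the averaged difference was -0.40 ± 0.07 (limma, adjusted p = 0.0441). This call was lost in 10 of 17 alternatives at adjusted p values of 0.0719 to 0.203 in limma, among them every fit without 1 array other than the second untreated δ array. Nfe2l1 itself read between 4.12 and 4.52 over all arrays, with differences of 0.05 ± 0.13 in the β line and -0.06 ± 0.13 in the δ line (limma, adjusted p = 0.910 and 0.841).

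Between the lines the called genes of this list were mostly regulators of transcription. Ngly1, the enzyme that removes glycans from NRF1, read 0.51 and 0.58 in untreated and 0.27 and 0.24 in treated β cells, and 0.95 and 1.08 in untreated and 1.01 and 0.85 in treated δ cells. It was higher in the δ line by 0.47 ± 0.10 without (limma, adjusted p = 0.0317) and 0.67 ± 0.10 with doxycycline (limma, adjusted p = 0.00944). Maff, a small Maf protein that dimerises with NRF1, was lower, at -0.68 without and -0.53 with doxycycline (limma, adjusted p = 0.0236 and 0.0482). With doxycycline Mafk was lower (-0.59), while Mafg (0.44) and Nfya (0.77), a subunit of the CCAAT-binding factor NF-Y, were higher. Of the 12 regulators 2 were thus called without and 5 with doxycycline, and of the 45 genes 2 and 6, beside 13.2% and 15.3% of all genes. The called gene outside the regulators was Psmb8, already described. Each of the regulator calls was lost in 3 to 11 of its 17 alternatives.

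Promoters are shown for Psmd11 and Psmb3, the subunits that passed a test, and for Psmd9 and Psmb5, whose windows hold the motif of the regulators above. RefSeq windows of assembly GRCm38.p6, from 250 bases before to 50 bases after the start, matched 28 of the 35 genes with 30 windows. TGACNNNGC, the core of the antioxidant response element that NRF1 and small Maf proteins bind, and CCAAT, the site of NF-Y, were searched on both strands, with overlapping matches counted. The 250 bases before the start are given 5′ to 3′ on the gene's strand, with matches in capitals.
Psmd11, chr11:80428365-80428614, plus strand: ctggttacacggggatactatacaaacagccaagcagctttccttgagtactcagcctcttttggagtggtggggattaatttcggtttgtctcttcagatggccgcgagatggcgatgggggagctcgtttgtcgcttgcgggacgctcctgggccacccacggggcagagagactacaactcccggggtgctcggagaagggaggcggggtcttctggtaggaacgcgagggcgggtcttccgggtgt
Psmb3, chr11:97703184-97703433, plus strand: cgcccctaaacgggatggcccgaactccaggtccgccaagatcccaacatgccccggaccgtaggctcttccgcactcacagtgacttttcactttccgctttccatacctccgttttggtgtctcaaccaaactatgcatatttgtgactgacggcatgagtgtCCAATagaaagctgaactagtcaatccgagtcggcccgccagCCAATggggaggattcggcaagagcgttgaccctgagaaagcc
Psmd9, chr5:123227940-123228189, plus strand: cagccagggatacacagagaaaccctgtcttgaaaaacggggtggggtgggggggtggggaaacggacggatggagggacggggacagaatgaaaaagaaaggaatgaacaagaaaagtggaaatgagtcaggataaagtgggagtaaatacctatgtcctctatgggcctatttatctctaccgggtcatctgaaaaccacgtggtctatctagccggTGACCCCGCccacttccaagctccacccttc
Psmb5, chr14:54617996-54618245, minus strand: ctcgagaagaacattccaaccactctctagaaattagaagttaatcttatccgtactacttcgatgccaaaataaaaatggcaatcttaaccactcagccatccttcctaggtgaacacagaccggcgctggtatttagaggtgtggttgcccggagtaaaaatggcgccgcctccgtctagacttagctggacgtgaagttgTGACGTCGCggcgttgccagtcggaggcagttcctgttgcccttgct

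The stretch of Psmd11 holds neither motif, that of Psmb3 holds CCAAT at 2 places, and those of Psmd9 and Psmb5 hold TGACNNNGC once each. Over the 30 subunit windows, TGACNNNGC was found in 5 (16.7%), those of Psmb5, Psmb6, Psmc6, Psmd9 and Psmd12, against 12.4% of 32851 windows. CCAAT was found in 11 (36.7%) against 37.4%, and both motifs together in 0 against 4.37%. The genes with TGACNNNGC differed by 0.05 (Psmb5), 0.02 (Psmb6), -0.20 (Psmc6), -0.40 (Psmd9) and -0.22 (Psmd12) with doxycycline in the β line and by -0.17, 0.02, 0.02, -0.16 and -0.08 in the δ line. A match is a description of the letters in the window and not of binding.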

How the data were processed

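RNA of 8 samples was hybridised to one-colour Agilent arrays on 1 slide. The deposited values are linear spot intensities from Agilent Feature Extraction 11.5.1.1, background-subtracted by that software, per the file headers, with no normalization between arrays. Here processed intensities were put on the log2 scale, averaged per probe over unflagged spots and set relative to the array's 75th percentile, and a probe needed to be well above background on the 2 arrays of some group. Names came from a RefSeq table (GRCm38.p6) by transcript accession (32931 of 56605 probes); the files' design build is mm9, so no probe coordinates are printed. Limma 3.58.1 (R 4.3.3) was fitted across all 19023 genes and 8 arrays with 1 mean per group (4 residual degrees of freedom), adjusted by Benjamini-Hochberg over all genes, with a threshold of 0.05. The code was tested on simulated data.

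The members and lists were chosen with earlier results of these data known. Fold changes with tests were named, per contrast, for members past the threshold and otherwise for up to 3 per direction by unadjusted p, and likewise for up to 2 companion genes, besides the catalytic subunits, their alternatives and Nfe2l1; values of Psmd5, Psmd7, Psmd12, Psmd14 and Psmc5 outside that rule were chosen after they were seen. Over the 17320 genes whose probes lay outside the deviating areas of every array, replicate arrays correlated at 0.993 to 0.997. No spot was saturated, and the number of arrays limits the precision. Alternatives were other scalings, background corrections (normexp used the median signal), filters, probe rules, an intensity trend, a slide-column block, fewer arrays and leaving out each array. The authors' own test was not given in these sources.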

Additional observations from a re-analysis of the deposited data

How the results depend on the processing

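With 2 arrays per group, few small differences can pass the test, and neither call of a subunit held in all alternatives. For doxycycline averaged over the lines, the count of called subunits was 1; it became 2 with an intensity trend (Psmb7 added) and 0 with the mean over probes, median centring, normexp or the slide column as a replicate block, and ranged from 0 to 3 without 1 array. The labels give no shared replicate numbers, and the block changed no other count. Between the treated lines the count of 1 became 0 with median centring, no filter on dim probes or normexp and 2 with only the arrays compared, and ranged from 0 to 1 without 1 array. Leaving out 1 array gave counts of 0 to 2 for the δ line, for the difference of the responses and for the untreated lines. These higher counts, and the 3 above, came without the second untreated δ array, where Psma5 and Psmd3 rested on the array with deviating areas. Without 1 array, the subunits' median ranged from -0.20 to 0.017 for doxycycline in the β line, from -0.084 to 0.13 for the difference of the responses and from -0.11 to 0.10 between the untreated lines; these ends came without the first or the second untreated β array.

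Of the fold changes named with a test, 20 of the alternative values had the opposite sign, and the cause was not tested. In the β line these were -0.079 for Psmc3 and -0.20 for Psmd6 with the mean over probes, -0.016 for Psmb6 with median centring, and -0.083 for Psmb6 and -0.063 for Psmc3 with quantile normalization. For the δ line the mean over probes gave -0.061 for Psmd6 and 0.030 for Nfe2l1, normexp -0.0012 and quantile normalization -0.019 for Psmb6. Psmd3 was -0.26 there both without probes in deviating areas and with only probes above background on all arrays. Without 1 array the β values ranged from -0.13 to 0.23 for Nfe2l1, from -0.11 to 0.22 for Psmb5, from -0.057 to 0.11 for Psmb6, from -0.071 to 0.16 for Psmc3 and from -0.0038 to 0.26 for Psmd6. Psmb6 ranged from -0.065 to 0.11 in the δ line, and Psmb5 from -0.025 to 0.094 between the treated lines.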
